A study of Sus scrofa with 8 samples.

Results

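SLN and ATP2A2 encode a small inhibitor and the calcium pump it binds, and their RNA was followed here in pig hearts after myocardial infarction. The members were all probe sets whose symbol in the platform annotation is exactly SLN or ATP2A2, which gave 2 of the 6765 genes with a symbol of their own, and 5 of the 23999 probe sets tested: 1 for SLN and 4 for ATP2A2. Each of the 8 arrays held left ventricular muscle from a different castrated male Yorkshire pig under 1 year of age, sampled at a distance from the infarct. All 8 animals had an infarct, and no heart without one is among the arrays. The untreated group held 3 animals. The low dose GGF2 group held 3 animals infused with 0.67 mg/kg GGF2 (glial growth factor 2, a neuregulin) per infusion, and the high dose GGF2 group held 2 animals infused with 2.0 mg/kg, in each case over 4 weeks. The labels name no vehicle infusion for the untreated animals, and how the infarct was made is not given in the sources used here.

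ATP2A2 encodes SERCA2, the pump that returns calcium to the sarcoplasmic reticulum after each heartbeat and so lets the muscle relax and refill its calcium store. The pump is held back by small membrane peptides that bind beside it: phospholamban (PLN), the main one in the ventricle, and sarcolipin (SLN), which in the heart is known chiefly from the atria and is also abundant in skeletal muscle. Lower SERCA2 activity is a known feature of failing heart muscle, which is why the pump and its inhibitors are often measured after infarction.

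Values are RMA summaries on the log2 scale, so a difference of 1 is a 2-fold difference. Array medians lay between 5.34 and 5.39, the lower quartiles between 3.72 and 3.80, and pairwise correlations between arrays from 0.981 to 0.994. Values near or below the lower quartile were taken as close to background. Ventricular markers were at 13.59 to 13.85 on average in every animal, with MYL2 from 14.63 to 14.82 and MYH7 from 14.77 to 14.94. The 2 high-dose animals carry consecutive tag numbers, as do untreated replicates 1 and 3, and untreated replicate 2 with low-dose replicate 1. The labels do not say what the tags mark, and anything shared by neighbouring tags cannot be told apart from the high dose. In whole tissue, fewer cells of a type and less RNA per cell cannot be told apart. Levels of different probe sets depend on their probes and were not set against each other.

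Sarcolipin was the member with the widest range. SLN (probe set Ssc.15893.1.S1_at) measured 4.80, 4.56 and 5.35 in the 3 untreated animals. It measured 5.79, 5.26 and 7.25 in the 3 low-dose animals. It measured 6.84 and 6.64 in the 2 high-dose animals. Each high-dose animal lay above each untreated one, while the low-dose values ran from inside the untreated range to the highest value of all 8 animals. The probe set was above background in all animals, at a mean of 5.81 that exceeded the means of 55.7% of the probe sets tested.

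The mean of SLN was 4.90 ± 0.40 (SD, n = 3) without treatment, 6.10 ± 1.03 (SD, n = 3) with the low dose and 6.74 ± 0.14 (SD, n = 2) with the high dose. High dose minus untreated was 1.84 ± 0.50 log2 units (SE), or 3.57-fold, with a 95% interval from 1.61-fold to 7.91-fold. The limma adjusted p over all probe sets was 0.403, so SLN did not pass the threshold of 0.05. By limma 0 of the 23999 probe sets (0%) passed in this comparison; 7.97%, SLN included, were under 0.05 before adjustment. A gap of at least 2-fold upward was seen in 0.704% of probe sets. Every high-dose value lay above every untreated value in 14.7%, and 0.542% met both of these conditions, as SLN did.

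The position of SLN among other features was given by size alone. Among the brightest probe sets of 6765 genes, SLN had the 18th largest upward difference at the high dose and the 7th largest at the low dose; these comparisons share the untreated animals. Of 3067 probe sets whose mean lay within 0.5 log2 units of SLN's, 5 (0.163%) had a larger upward difference at the high dose. The members were chosen with earlier results of these data known, so these positions are descriptions and not a test. SLN also had a larger pooled within-group SD than most, 0.70, above that of 98.6% of probe sets. The median among the equally bright ones was 0.21. Most of this spread came from the low-dose group, with an SD of 1.03 against 0.40 in untreated and 0.14 in high-dose animals.

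At the low dose SLN was 1.20 ± 0.45 log2 units (SE) above untreated, or 2.30-fold (95% interval 1.13-fold to 4.68-fold; limma adjusted p = 0.998). By limma no probe set (0%) passed here, 4.5%, again with SLN, were under 0.05 before adjustment and 0.217% were at least 2-fold higher. Low-dose replicate 3, at 7.25, weighed heavily: without it the difference was 0.62 (limma adjusted p = 0.895). High dose minus low dose was 0.64 ± 0.50 (SE), with a 95% interval from -0.51 to 1.79 (limma adjusted p = 0.718), so the doses were not shown to differ in SLN; that interval still holds differences of up to 3.45-fold. In that comparison 0.025% of probe sets passed and 10.2% were under 0.05 before adjustment.

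For the mean of both doses against untreated, SLN was at 1.52 ± 0.41 (SE), or 2.86-fold (limma adjusted p = 0.956). Here 0% of probe sets passed by limma, 4.83% were under 0.05 before adjustment and 0.279% were at least 2-fold higher. Of the 5 treated animals, 4 lay above all 3 untreated animals; the exception was low-dose replicate 2, at 5.26 against an untreated maximum of 5.35. The 5 treated animals averaged 6.36 ± 0.81 (SD, n = 5), a difference of 1.45 that gave p = 0.0714 in a two-sided exact permutation test, where 0.0357 is the smallest p possible. This was 1 of 6 such tests, on the 5 probe sets and on the difference between the genes, and none was under 0.05.

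**Figure D1:**
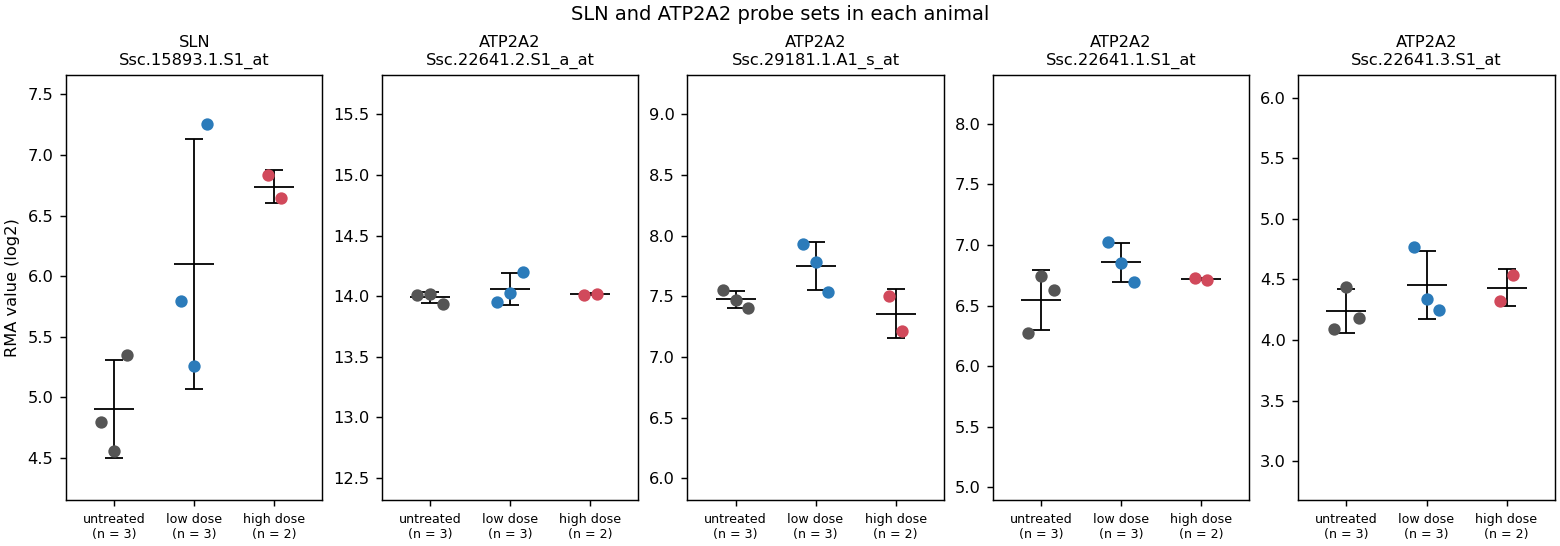
RMA values on the log2 scale (vertical axis, the same span of 3.5 units in each panel) for the 5 SLN and ATP2A2 probe sets in 3 untreated, 3 low-dose and 2 high-dose pigs. Points are animals, and the wide mark with its bar is the group mean ± SD. SLN spans 4.56 to 7.25, while the brightest ATP2A2 probe set stays between 13.94 and 14.20.

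ATP2A2, the pump gene, was close to level across the groups on its brightest probe set. Ssc.22641.2.S1_a_at, whose suffix marks probes shared by several transcripts of a gene, measured 14.01, 14.02 and 13.94 in untreated animals. It measured 13.95, 14.03 and 14.20 at the low dose. It measured 14.01 and 14.02 at the high dose. The 3 groups overlapped, and the single highest value was that of low-dose replicate 3, the animal with the highest SLN.

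The group means of this probe set were 13.99 ± 0.05 (SD, n = 3), 14.06 ± 0.13 (SD, n = 3) and 14.02 ± 0.01 (SD, n = 2). High dose minus untreated was 0.03 ± 0.12 log2 units (SE; limma adjusted p = 0.981), with a 95% interval from 0.846-fold to 1.23-fold. Low dose minus untreated was 0.07 ± 0.10 (SE; limma adjusted p = 0.998), with an interval from 0.889-fold to 1.24-fold. High minus low was -0.04 and both doses minus untreated 0.05, neither passing. This probe set was brighter than 99.9% of probe sets, and the highest value on any array was 15.01. Whether values this near the top of the scale understate differences was not tested.

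The other ATP2A2 probe sets were dimmer, and at the high dose they did not all point the same way against untreated. In the remaining comparisons every ATP2A2 probe set, the brightest included, had the same sign. Each was above untreated at the low dose and over both doses, and lower at the high than at the low dose, and none passed. Ssc.29181.1.A1_s_at, whose suffix marks probes that can match transcripts of more than 1 gene, measured 7.55, 7.47 and 7.41 in untreated animals, 7.93, 7.78 and 7.54 at the low dose, and 7.50 and 7.21 at the high dose. The low-dose and untreated ranges overlapped, since low-dose replicate 3 lay below untreated replicate 1. High minus low was -0.39 ± 0.15 (SE; limma adjusted p = 0.429), low minus untreated 0.28 ± 0.14 (SE) and high minus untreated -0.12 ± 0.15 (SE). Without high-dose replicate 2, high minus untreated was 0.03.

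Ssc.22641.1.S1_at measured 6.27, 6.74 and 6.63 in untreated animals, 7.02, 6.85 and 6.69 at the low dose, and 6.73 and 6.71 at the high dose. Its lowest value was untreated replicate 1, and the remaining animals of all groups overlapped. It differed from untreated by 0.31 ± 0.15 (SE) at the low dose and by 0.17 ± 0.16 (SE) at the high dose. Ssc.22641.3.S1_at, the dimmest, measured 4.09, 4.44 and 4.18 in untreated animals, 4.77, 4.34 and 4.24 at the low dose, and 4.32 and 4.54 at the high dose. Its differences from untreated were 0.21 ± 0.16 (SE) and 0.19 ± 0.18 (SE). None of these passed; the smallest limma adjusted p of the 3 dimmer probe sets was 0.429.

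The 4 ATP2A2 probe sets did not vary together across the 8 animals. The brightest one had Pearson correlations of -0.12, -0.11 and -0.27 with the other three, while the 2 dimmest correlated at 0.81; these are descriptions over 8 arrays. The deposited table does not state which part of the transcript each probe set reads, so SERCA2 splice forms were not analysed here. In exact permutation tests of 5 treated against 3 untreated animals, two-sided, the 4 probe sets gave p = 0.321, 0.5, 0.143 and 0.214, in the order of their brightness.

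**Figure D2:**
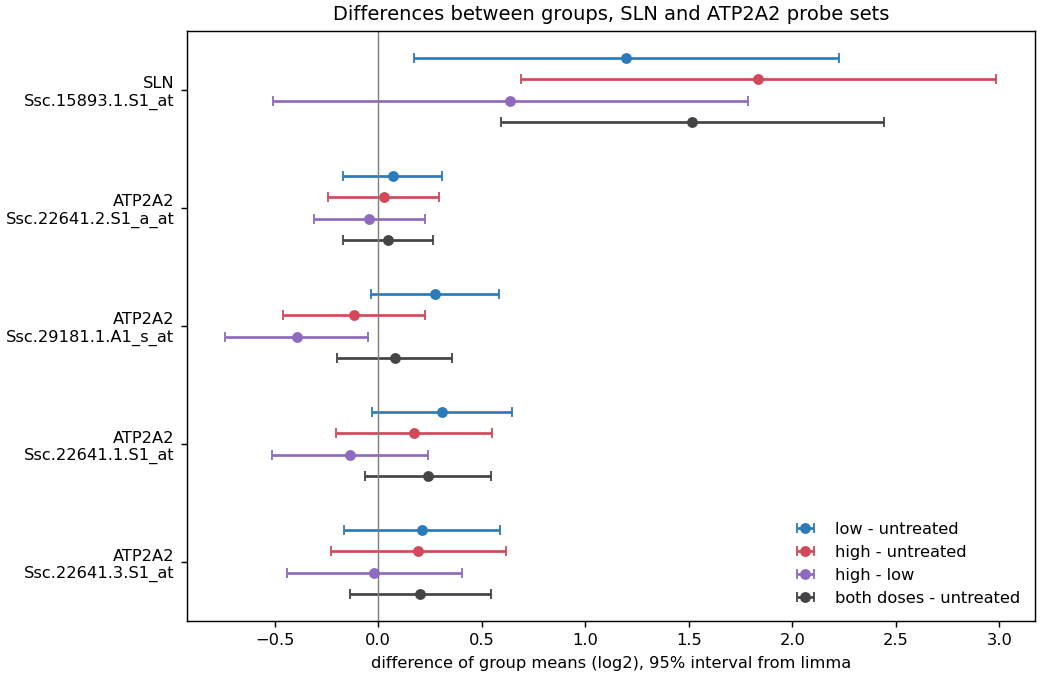
Differences of group means in log2 units (horizontal axis) with 95% intervals from limma for each SLN and ATP2A2 probe set in 4 comparisons. The SLN intervals against untreated lie above 0 before adjustment over all probe sets, with high dose at 1.84, and the brightest ATP2A2 probe set stays between -0.04 and 0.07.

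The inhibitor and the pump were also compared within each animal, which asks whether their RNAs differed between groups by unequal amounts. The brightest ATP2A2 probe set varied little over all animals (SD 0.08, against 0.99 for SLN), so this comparison largely repeated that of SLN alone. SLN minus the brightest ATP2A2 probe set was -9.21, -9.46 and -8.59 in untreated animals. It was -8.16, -8.77 and -6.95 at the low dose and -7.18 and -7.38 at the high dose. The difference was larger by 1.40 log2 units in treated animals, with 1 treated animal, low-dose replicate 2, inside the untreated range. The two-sided exact permutation test gave p = 0.0714, so the difference was not past 0.05; the offset itself has no meaning as a ratio of amounts, since the probe sets differ.

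Across the 8 animals SLN and the brightest ATP2A2 probe set had Pearson r = 0.53 (exact permutation p = 0.154) and Spearman rho = 0.17 (exact permutation p = 0.703), the only relation between the genes given a p. Without the 2 animals farthest from the ATP2A2 median, low-dose replicate 3 and untreated replicate 3, r was -0.12 (exact permutation p = 0.853). Without low-dose replicate 3 alone it was 0.01. The positive r therefore rested on that 1 animal.

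Phospholamban, the ventricle's main SERCA2 inhibitor, showed no difference of the size seen for SLN. PLN (Ssc.5227.1.S1_at) measured 13.92, 13.53 and 13.65 in untreated animals, 13.27, 13.71 and 13.76 at the low dose, and 13.80 and 13.69 at the high dose. The groups overlapped. High minus untreated was 0.05 ± 0.18 (SE; limma adjusted p = 0.976), with a 95% interval from -0.36 to 0.46, and its second probe set was at 0.10. Low minus untreated was -0.12 and -0.20 on the 2 probe sets.

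A list of 20 genes held regulators of the pump, direct or indirect, and other proteins tied to calcium handling. Of these 11 were measured, SLN among them, and 0 passed in any of the 4 comparisons by limma. At the high dose 6 lay above and 5 below untreated, with a median of 0.05. Over all 6765 genes the median was 0.02 and 53.8% were higher. SLN was the only one of the 11 with an unadjusted p under 0.05 by limma. That is close to the share over all genes, 9.56%. Myoregulin (MRLN), a pump inhibitor of skeletal muscle, was close to background in all animals, from 2.97 to 3.35. S100A1, a calcium sensor that stimulates the pump, was at -0.59 ± 0.20 (SE) at the low dose (limma adjusted p = 0.998) and at -0.34 at the high dose.

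The remaining genes of this list at the high dose were as follows. AKAP7, which anchors protein kinase A to phospholamban, was at -0.83 ± 0.38 (SE), with high-dose replicate 1 at 6.47 and every other animal between 7.56 and 8.21. Sorcin (SRI), a calcium-binding protein of the release channel, was at -0.41, and SARAF, a regulator of store-operated calcium entry, at -0.18. The histidine-rich calcium-binding protein HRC was at 0.18 and the phosphatase inhibitor PPP1R1A, which preserves phospholamban phosphorylation, at 0.20. The reticulum chaperones CALR and CANX were at 0.09 and -0.01; dimmer CANX probe sets ranged from -0.28 to 0.09.

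The other pump genes gave no value past the threshold. Of 8 listed, 5 were measured including ATP2A2. ATP2A1, the fast skeletal muscle pump, had its brighter probe set between 4.71 and 5.11 in all animals and was at 0.03 at the high dose. ATP2A3, the pump of blood and epithelial cells, was near background and at 0.02. ATP2B1, a plasma membrane calcium pump, was at 0.16 at the high dose and 0.37 at the low dose, with low-dose replicate 3 highest at 7.77. ATP2C1, the Golgi pump, was at -0.16.

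Taking the 6 calcium handling lists together without SLN and ATP2A2, 56 of 99 genes were measured and 0 passed in limma in each of the 4 comparisons. At the high dose 35 were above and 21 below untreated, with a median of 0.04. Before adjustment 3 of the 56 were under 0.05, against 9.56% of all 6765 genes, of which 53.8% were higher. None of the 56 differed by as much as SLN at the high dose, the low dose or over both doses, each gene being read on its brightest probe set. For high against low dose, where SLN was at 0.64, 3 did: RCAN1 at 1.51, AKAP7 at -0.79 and TMEM38B at 0.67. The genes under 0.05 before adjustment at the high dose were ATP1B1, a subunit of the sodium pump, at 0.30, the phosphatase catalytic subunit PPP2CA at 0.36 and the calmodulin kinase CAMK2B at 0.33. The nearest to SLN in size was the calcineurin inhibitor RCAN1, at 1.63 ± 0.80 (SE; limma adjusted p = 0.672) and at 2.46 on its dimmer probe set; the brighter one ran from 10.05 to 12.42 among untreated animals alone.

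In the release and store list, 0 of 11 measured genes passed at the high dose. The release channel RYR2 was at 0.16, and CASQ2, which buffers calcium in the store, was at 0.51 with untreated values from 8.00 to 9.15. The 4 members with the smallest p at the high dose were the release channel ITPR1 at 0.26, the ion channel TMEM38B at 0.35, RYR1 at -0.24 and the channel partner FKBP1A at -0.21. Among cell membrane genes the sodium-calcium exchanger SLC8A1 was at 0.54, the channel subunit CACNA2D1 at -0.41 and CACNB4 at 0.07. Of the 5 measured membrane genes 4 were above untreated (median 0.07), against 53.8% of all 6765 genes. Of the 19 measured genes of calcium signalling 10 were above and 9 below, and the calcineurin subunit PPP3CA was at -0.44. Of the 7 measured genes of mitochondrial calcium transport, 7 were above untreated with a median of 0.13, none passed and none had an unadjusted p under 0.05; VDAC2 was at 0.23, LETM1 at 0.18, VDAC3 at 0.13 and SLC8B1 at 0.10, with dimmer VDAC2 probe sets from -0.31 to 0.07.

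**Figure D3:**
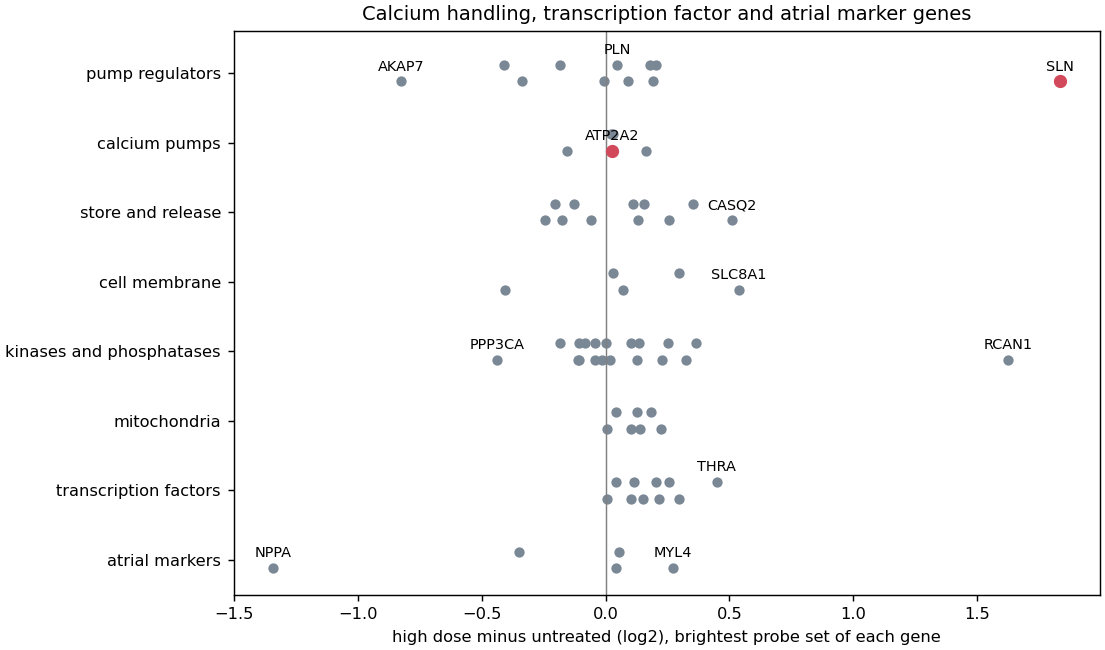
High dose minus untreated in log2 units (horizontal axis) on the brightest probe set of each measured gene, by gene list (rows). Each point is a gene, and SLN and ATP2A2 are red. The row of transcription factors also holds genes of thyroid hormone control, DIO2 and DIO3 among them. SLN stands at 1.84 and RCAN1 at 1.63, while ATP2A2 and PLN stand at 0.03 and 0.05; none passed the adjusted threshold.

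Transcription factors that act on the ATP2A2 gene were listed together with genes of its thyroid hormone control. The latter include DIO2 and DIO3, which encode deiodinase enzymes and not transcription factors. Of these 16 genes 10 were measured. All 10 lay above untreated at the high dose, with a median of 0.18, against 53.8% higher among all genes. By limma 0 passed and 1 of the 10 had an unadjusted p under 0.05, against 9.56% of all genes. This was the thyroid hormone receptor THRA, which measured 8.86, 9.04 and 8.94 in untreated animals, 9.09, 9.03 and 8.98 at the low dose, and 9.53 and 9.26 at the high dose. High minus untreated was 0.45 ± 0.13 (SE), with a limma adjusted p of 0.405, and 0.11 on a dimmer probe set. Each high-dose value of THRA lay above each untreated one, as in 14.7% of all probe sets. GATA4 was at 0.30, with a dimmer probe set at -0.07, MEF2D at 0.21 and SP1 at 0.20.

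Since SLN is known as an atrial gene, atrial markers were read beside it. Of 10 listed, 5 were measured, none of them close to background, and 0 passed. The atrial light chain MYL4 was at 0.27 ± 0.28 (SE) at the high dose and 0.54 at the low dose, and the gap junction gene GJA5 and the potassium channel KCNJ3 were at 0.04 and 0.05. The atrial peptide gene NPPA was at -1.34 ± 0.52 (SE; limma adjusted p = 0.559), with high-dose values of 8.21 and 6.09, and NR2F2 was at -0.35. The log2 of the summed level of the 5 genes ran from 9.83 to 9.99 in untreated animals, 9.66 to 10.05 at the low dose and 9.33 to 9.70 at the high dose. Without NPPA, which is also a wall stress gene, the ranges were 9.09 to 9.37, 9.09 to 9.58 and 9.06 to 9.17, and the 3 groups overlapped. The part of atrial genes in the SLN difference was not tested.

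Skeletal muscle, the other known site of SLN, was read the same way. Of 13 listed markers 9 were measured, of which MYH2, MYOD1 and MYF6 were close to background, and 0 passed. The log2 of the summed level was 13.81 to 13.93 in untreated animals, 13.79 to 13.89 at the low dose and 13.99 to 14.14 at the high dose. That sum is set mostly by CKM, which heart muscle expresses strongly and which was at 0.19 at the high dose. Of the 9 markers 8 lay above untreated at the high dose (median 0.07), against 53.8% of all 6765 genes. By limma 1 of the 9, MYF6, had an unadjusted p under 0.05, against 9.56% of all genes. The plain mean of the 9 was 5.39 in low-dose replicate 3 and 5.35 and 5.38 in the high-dose animals, against 5.17 to 5.29 in the other 5 animals; these 3 are the animals with the highest SLN. Without CKM the log2 summed level was 7.27 to 7.41 in untreated animals, 7.32 to 7.52 at the low dose and 7.44 in each high-dose animal. The part of these differences in that of SLN was not tested. TNNT3 and TNNC2 were at 0.21 and 0.13, and MYF6, close to background, at 0.45 (limma adjusted p = 0.513), with a dimmer probe set at -0.23.

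Other marker lists also stood at different levels in the high-dose animals. The mean of 13 immediate early genes was 8.81 to 10.33 in untreated animals, 8.61 to 10.50 at the low dose and 11.22 to 11.52 at the high dose. The animal with the highest SLN, low-dose replicate 3, had 9.88. With this mean as a covariate, SLN at the high dose was at 1.58 (limma adjusted p = 0.903). The mean was higher in each high-dose animal than in any other animal, so this covariate cannot be told apart from the high dose. The log2 summed level of 8 fibroblast markers was 13.40 to 13.85, 13.26 to 13.85 and 12.45 to 12.95, and that of 7 macrophage markers 9.76 to 10.31, 9.79 to 10.44 and 9.17 to 9.25, in the same order of groups. For 9 smooth muscle markers the high-dose range, 13.15 to 13.36, lay inside the untreated range of 13.07 to 13.52, and the low dose gave 13.40 to 13.87. Their plain mean was 8.62 to 9.21 in untreated animals, 9.29 to 9.48 at the low dose and 9.15 to 9.20 at the high dose. At the low dose 8 of the 9 lay above untreated, against 48.3% of all 6765 genes, with CNN1 at 1.46 (limma adjusted p = 0.998). At the high dose CNN1 was at 1.99 and RGS5 at -0.93. For 10 endothelial markers, KDR being close to background, the high-dose range of 10.65 to 11.03 lay below the untreated 11.09 to 11.28, and the low dose gave 10.82 to 11.34. Control transcripts read at their 3' end exceeded their 5' end by 2.93 to 3.36, 3.28 to 3.78 and 3.00 to 3.03 log2 units, and with this gap as a covariate SLN at the high dose was at 1.84. At the high dose all 13 measured immediate early genes lay above untreated (median 2.03), 6 of 8 fibroblast markers below (median -0.83), 6 of 7 macrophage markers below (median -0.80), 7 of 10 endothelial markers below (median -0.07), 6 of 9 smooth muscle markers above (median 0.12), 8 of 9 skeletal muscle markers above (median 0.07), 3 of 5 atrial markers above (median 0.04) and 5 of 7 ventricular markers above (median 0.02); 0 of each list passed by limma. Over all 6765 genes, 53.8% lay above untreated at the high dose. The part of the immediate early, smooth muscle, fibroblast, macrophage and endothelial differences in that of SLN was not tested. Neither was that of the 3' to 5' gap.

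Among fetal and wall stress genes, often read beside SERCA2 in heart failure, 10 of 12 were measured and 0 passed. At the high dose NPPB was at -2.25 ± 0.59 (SE; limma adjusted p = 0.392), the slow skeletal troponin TNNI1 at 0.69 and the slow myosin MYH7 at 0.04. The median of the list was 0.06, with 6 above and 4 below untreated, against 53.8% higher over all 6765 genes.

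The genes whose pattern over the 8 animals was most like that of SLN were picked by Pearson r among 6069 probe sets with 1 symbol and a mean above the median. They were MKS1 (r = 0.96), DNAJB6 (0.95), NMNAT3 (0.95), PCBP2 (0.93) and DNAJB11 (0.92). Their spread was smaller than that of SLN, with SDs over the 8 animals from 0.16 to 0.21 against 0.99, and their high-dose differences ran from 0.29 for NMNAT3 and DNAJB11 to 0.37 for PCBP2. For the brightest ATP2A2 probe set they were SLC30A5 (0.95), SPACA9 (0.95), ZNF281 (0.95), TFAM (0.93) and ATP2B1 (0.93). In these 5, as in ATP2A2, low-dose replicate 3 was the highest animal, so the likeness is mostly that of 1 array. With 8 arrays and this many candidates, high values of r are a description and no test was made.

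**Figure D4:**
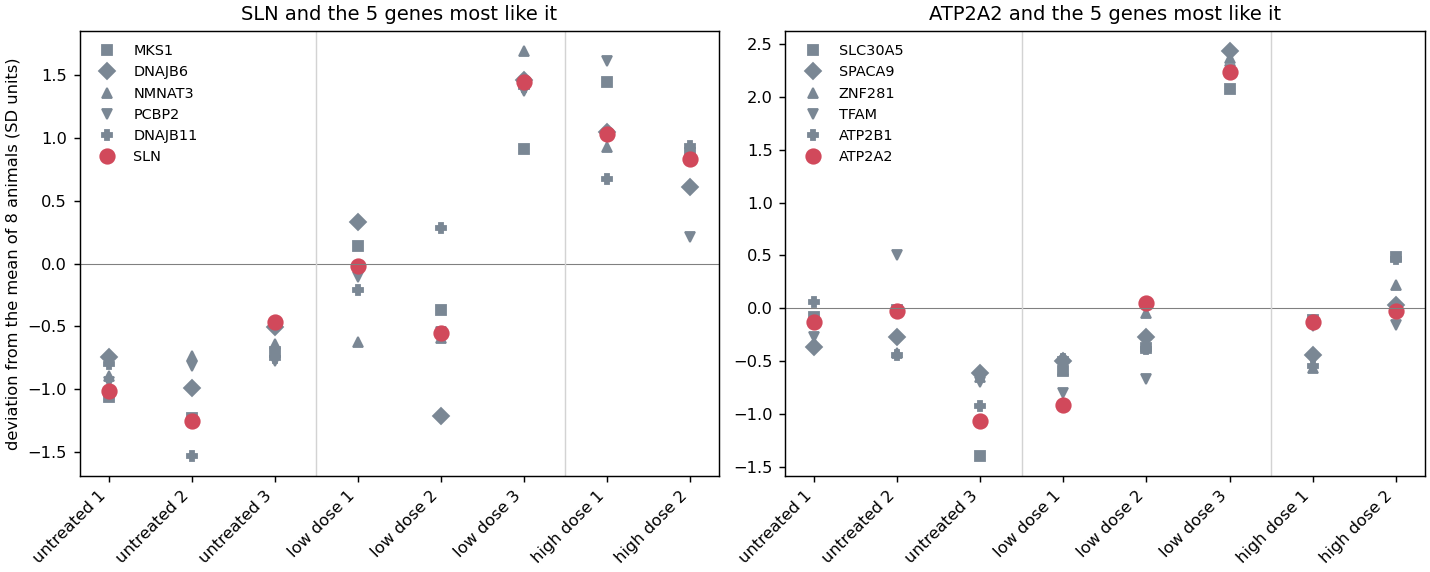
Deviation of each animal from the mean of the 8 animals in SD units (vertical axis), for SLN (left) and the brightest ATP2A2 probe set (right) with the 5 genes most like each by Pearson r. On the left the 3 untreated animals lie below 0 and low-dose replicate 3 and the high-dose animals above it; on the right low-dose replicate 3 stands apart.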

How the data were processed

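RNA from 8 pigs was measured on 1 Affymetrix porcine genome array each. The deposited values are on the log2 scale and cover 24123 probe sets; RMA and Partek 6.6 are named in the submitters' processing notes, and their settings are not given here. RMA makes array distributions alike, so a shift shared by most genes would be lost. Arrays have no read depth, and the number of animals limits precision. Groups came from the treatment labels; replicate numbers follow sample order and pair nothing.

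Controls (124 probe sets) were set aside. Symbols came from the platform annotation: 10069 probe sets had 1 symbol, 198 several and 13732 none. limma 3.58.1 in R 4.3.3 fitted 1 mean per group to all 8 arrays (5 residual and 3.50 prior degrees of freedom), with 4 contrasts and Benjamini-Hochberg adjustment over 23999 probe sets; adjusted p under 0.05 passed. Single values of 5 treated and 3 untreated animals were compared by exact permutation over 56 splits; 3 against 3 cannot go below 0.1 and 3 against 2 not below 0.2. The fit was tested on simulated data.

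The members and the 16 gene lists (211 genes, 140 measured) were chosen with earlier results of these data known. Lists use each gene's brightest probe set and no set test. Named were all members, all measured pump regulators and atrial markers, up to 4 genes of each other list by smallest p at the high dose, and 5 genes most like each member. In the fibroblast list these 4 were POSTN (-2.45), FBN1 (-1.39), LUM (-0.90) and FN1 (-1.12); in the macrophage list LAPTM5 (-0.80), MRC1 (-1.17), CD163 (-0.93) and C1QC (-0.96); in the endothelial list PECAM1 (-0.57), TEK (-0.53), ENG (0.27) and CDH5 (-0.39); in the smooth muscle list SMTN (0.43), CNN1 (1.99), RGS5 (-0.93) and PDGFRB (-0.23); in the immediate early list NR4A2 (3.31), KLF4 (1.52), BTG2 (2.03) and FOS (2.34); in the ventricular list TNNI3 (0.05), ACTC1 (0.08), MYH7 (0.04) and HEY2 (-0.14), as log2 differences of high dose minus untreated. Of the calcium handling genes, RYR2 and CASQ2 were named after their values were seen. Alternatives were a trend or robust prior, dropping dim probe sets, centring on array medians, repeated quantile normalization, 2-group fits, treated arrays pooled, array weights, probe set means, leaving out each array, and untreated replicate 2 with low-dose replicate 1, the 1 pair of neighbouring animal tags that spans groups, left out or as a covariate. Covariates for immediate early genes and the 3' to 5' gap were added after the data were seen.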

Additional observations from a re-analysis of the deposited data

How the results depend on the processing

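No paired analysis was possible because the labels carry no replicate numbers that match across groups. SLN lay above untreated in all 3 comparisons with it, and above the low dose at the high dose, under all 76 alternatives run, and it passed in none. Leaving out 1 array gave 1.66 to 2.06 at the high dose (limma adjusted p 0.119 to 1.00), 0.62 to 1.62 at the low dose, 0.22 to 1.21 for high against low and 1.23 to 1.74 over both doses; with 1 high-dose array left, it is assumed to vary like the other groups. Other settings gave 1.58 to 1.87 at the high dose (limma adjusted p 0.164 to 0.903). Exact permutation p for SLN was 0.0571 to 0.19 without 1 array. With 1 array left out, the few splits allow no two-sided p below 0.0571. These tests could therefore not reach the threshold whatever the values, and no conclusion is drawn from them.

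ATP2A2 probe sets passed in none of 304 alternatives, and 13 of these turned the sign of a difference that had not passed. Ssc.22641.3.S1_at, high against low, was at 0.023 with median centring, 0.14 without untreated replicate 2 and low-dose replicate 1, the pair of neighbouring tags that spans groups, 0.11 with these as a covariate, 0.22 with the 3' to 5' gap as a covariate, and -0.13 to 0.14 without 1 array. With that gap, Ssc.22641.1.S1_at, high against low, was at 0.083. With the immediate early covariate, Ssc.22641.1.S1_at and Ssc.22641.3.S1_at were at -0.079 and -0.17 at the high dose, and the latter at -0.0082 over both doses. Without 1 array, Ssc.22641.2.S1_a_at ran from -0.0019 to 0.12 at the low dose and -0.098 to 0.028 for high against low, and Ssc.29181.1.A1_s_at from -0.26 to 0.028 at the high dose.

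Counts of passing probe sets at the high dose, 0 in the report, were 4 with an intensity trend, 7 with a robust prior, 3 with median centring, 9 with repeated quantile normalization, 2 in the 2-group fit, 13 with array weights, 55 without that pair of animals, 70 with their covariate and 0 to 19 without 1 array (19 without untreated replicate 2); neither SLN nor ATP2A2 was among them. High against low, 6 in the report, gave 1 without dim probe sets, 0 in the 2-group fit, 10 with array weights, 12 without that pair, 25 with their covariate and 0 to 7 without 1 array. Without that pair 1 passed at the low dose and 1 over both doses. The median of the calcium handling genes, high against low, 0.03 in the report, was 0.073 with dim probe sets left out and 0.073 with median centring, and 0.011 to 0.11 without 1 array. Causes were not tested, and the number of arrays limits all of these.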
